A study of Mus musculus with 8 samples.

Results

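Cdc42 is a small GTPase, and Cdc42ep1 to Cdc42ep5 are the 5 Cdc42 effector protein genes. These 6 genes were taken by symbol from the 54752 genes of the count tables. They were chosen by their measured counts in stressed and control brains, which were already known, so their values in that contrast are a description without p-values and support nothing. All 6 had counts in every brain and were among the 17865 genes that passed the filter on low counts. RNA-seq was performed on the brains of wild type C57BL/6 mouse fetuses (C57BL/6Slac in the study's methods) at E15.5, with 1 library per brain. The study's methods give the whole brain as the tissue, and its sample list gives half_whole_brain. The control group comprised the 2 female brains F36 and F37 and the 2 male brains M30 and M31, of fetuses whose dam was not stressed. The stress group comprised the 2 female brains F34 and F35 and the 2 male brains M28 and M29, of fetuses whose dam was exposed to chronic unpredictable mild stress (CUMS, a changing series of mild stressors) during pregnancy. Each group is a single litter by the study's sample list, so the effect of the litter and that of CUMS cannot be told apart, and the spread between brains is one within a litter. Other animals of the study were not analysed here.

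Cdc42 switches between a GTP-bound active state and a GDP-bound resting state and directs actin assembly and cell polarity. In the fetal brain it is known for keeping the apical polarity of radial glia, the dividing neural progenitors, and for shaping axons and dendrites of young neurons. The Cdc42 effector proteins (also called Borg proteins) bind the active form through a short CRIB motif (Cdc42/Rac interactive binding) and bind septins, the filament-forming GTPases, through another conserved region, which places septin and actin filaments under the control of Cdc42.

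The CRIB motif is shared by the 5 effectors, though not by them alone. Its coding sequence is shown for each, from the GENCODE vM21 coding annotation on mm10. Each stretch has 45 bases and lies within 1 coding exon. Capitals mark the codons of the residues that the search required, and lower case the codons between them.
Cdc42ep1: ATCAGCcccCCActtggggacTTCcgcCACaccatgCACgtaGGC
Cdc42ep2: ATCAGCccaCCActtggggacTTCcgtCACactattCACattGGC
Cdc42ep3: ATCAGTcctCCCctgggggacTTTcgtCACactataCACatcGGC
Cdc42ep4: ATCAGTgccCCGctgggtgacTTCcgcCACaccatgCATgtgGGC
Cdc42ep5: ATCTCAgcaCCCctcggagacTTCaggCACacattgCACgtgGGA
The stretches lie at chr15:78847468-78847512 on the plus strand for Cdc42ep1, and on the minus strand at chr19:5918544-5918588 for Cdc42ep2, chr17:79335355-79335399 for Cdc42ep3, chr11:113729441-113729485 for Cdc42ep4 and chr7:4151677-4151721 for Cdc42ep5. The motif starts between codon 23 (Cdc42ep5) and codon 38 (Cdc42ep1), close to the start of proteins of 150 to 409 codons. Cdc42ep1 and Cdc42ep2 had the most similar stretches, with 39 of 45 bases the same (86.7%). Cdc42ep3 and Cdc42ep5 had the least similar, with 29 of 45 (64.4%).

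Cdc42 itself has no such motif, and its gene codes for a pair of proteins of 191 codons that differ in the last exon. The part of the coding sequence where they part is shown because the gene counts do not separate these forms. Each tail has the last 87 of 573 coding bases.
Cdc42-201: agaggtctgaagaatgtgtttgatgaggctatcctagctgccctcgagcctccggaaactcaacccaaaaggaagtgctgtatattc
Cdc42-202: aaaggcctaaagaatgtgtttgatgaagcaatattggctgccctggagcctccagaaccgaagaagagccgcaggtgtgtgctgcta
The ending of Cdc42-201 is the form known as brain-type, and that of Cdc42-202 is the form found in most tissues. Every Cdc42 value below is therefore the sum of both forms.

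The 6 genes lie on 6 chromosomes of mm10, and their gene models in the count tables were as follows. Cdc42 (ENSMUSG00000006699.17) spans chr4:137319696-137357720 with 2966 exon bases. Cdc42ep1 (ENSMUSG00000049521.2) spans chr15:78842624-78850897 with 2560 exon bases, of which 1.48% are shared with the antisense gene Lgals2. Cdc42ep2 (ENSMUSG00000045664.4) spans chr19:5917556-5924816 with 1491 exon bases. Its model in GENCODE vM21 goes on for 1920 bases at the 3′ end, and reads there were not part of its count. Cdc42ep3 (ENSMUSG00000036533.9) spans chr17:79333727-79355091 with 2309 exon bases, of which 8.14% are shared with the antisense gene Gm17315. The counting command sets no strand and no option for overlapping genes, so by the tool's defaults a read pair on exons of both genes of an overlap is assigned to neither. Cdc42ep4 (ENSMUSG00000041598.7) spans chr11:113726850-113751881 with 3643 exon bases, and Cdc42ep5 (ENSMUSG00000063838.6) spans chr7:4151260-4164860 with 1288.

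Cdc42 was by far the most abundant of the 6 transcripts. CPM is the count scaled to a common library size after TMM normalization, and levels between genes were compared per length, as FPKM, which is CPM per kilobase of exon. Over the 8 brains the mean level was 165.4 ± 4.04 FPKM (SD, n = 8) for Cdc42, above 99.1% of the genes tested, whose median was 4.21 FPKM. Among the effectors, Cdc42ep4 was highest at 26.3 ± 0.754 FPKM. Cdc42ep3 followed at 15.0 ± 0.680 and Cdc42ep2 at 11.8 ± 1.61. Cdc42ep1 was below the median gene at 2.75 ± 0.309 FPKM, and Cdc42ep5 was lowest at 0.505 ± 0.107 FPKM, above only 16.1% of the genes tested. Cdc42 was thus 6.30 times the level of Cdc42ep4, and Cdc42ep1 was 5.45 times that of Cdc42ep5.

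Of the neighbours in this order, only Cdc42ep3 (13.6 to 15.9 FPKM) and Cdc42ep2 (9.41 to 14.0 FPKM) had ranges over the brains that overlapped. The order was the same on CPM without division by length, and on library totals without TMM scaling. The low level of Cdc42ep5 rested on 12 to 25 counts per brain, whereas Cdc42 had 12223 to 14463.

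**Figure D1:**
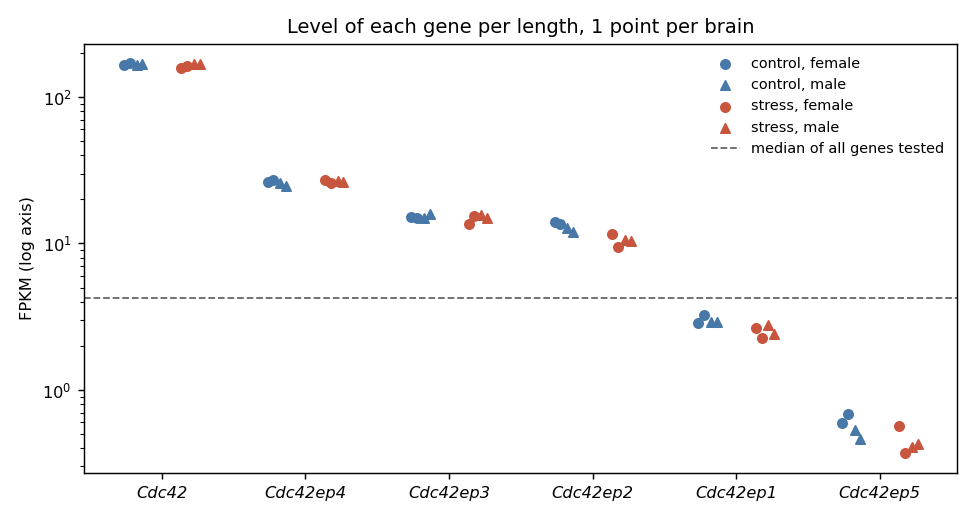
Level of Cdc42 and its 5 effector genes in FPKM on a log axis, 1 point per brain, ordered by mean level, with circles for females, triangles for males and the median of all genes tested as a dashed line (4.21 FPKM). Cdc42 lies far above its effectors, Cdc42ep3 and Cdc42ep2 overlap, and Cdc42ep1 and Cdc42ep5 lie below the median gene.

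Among the 6 genes, Cdc42ep2 and Cdc42ep1 were lower in every stressed brain than in every control brain, and the other 4, Cdc42 included, overlapped between the groups. Differences are given as Log2FC (stress vs. control) with its standard error (SE) from edgeR's quasi-likelihood fit with sex as a covariate, and levels as CPM. Cdc42ep2 was at 20.9 CPM in control F36, 20.2 in F37, 18.9 in M30 and 17.8 in M31. It was at 17.3 CPM in stress F34, 14.0 in F35, 15.8 in M28 and 15.4 in M29. The highest stressed brain, F34, was just below the lowest control brain, M31, and F35 was the lowest of all. The mean was 19.4 ± 1.40 CPM (SD, n = 4) in control and 15.6 ± 1.36 in stress, with a Log2FC of -0.31 (SE 0.06), on 355 to 574 counts per brain. The study's text names Cdc42ep2 among the cell-division genes up-regulated in stress over all its animals, which is the opposite direction. The cause of this disagreement was not tested.

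Cdc42ep1, the effector most similar to Cdc42ep2 in the CRIB stretch, was at 7.35 CPM in control F36, 8.29 in F37, 7.44 in M30 and 7.42 in M31. It was at 6.77 CPM in stress F34, 5.77 in F35, 7.15 in M28 and 6.18 in M29. All stressed brains were below all control brains, but M28 came close to them and F37 stood above the other controls. The mean was 7.62 ± 0.443 CPM in control and 6.47 ± 0.612 in stress, a Log2FC of -0.23 (SE 0.09). Over the 8 fits that left out a brain, this Log2FC lay between -0.30 (without M28) and -0.18 (without F35).

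Cdc42 was at 492.5 CPM in control F36, 502.5 in F37, 489.8 in M30 and 497.1 in M31. It was at 465.1 CPM in stress F34, 482.9 in F35, 495.5 in M28 and 499.6 in M29. The 2 stressed males lay among the controls and the 2 stressed females below them, and the Log2FC over all brains was -0.03 (SE 0.03).

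Cdc42ep3 ranged from 34.4 to 36.7 CPM in control and from 31.5 to 36.2 in stress (Log2FC -0.03, SE 0.04). Cdc42ep4 ranged from 90.1 to 98.2 CPM in control and from 94.9 to 98.2 in stress (Log2FC 0.03, SE 0.03). Cdc42ep5 ranged from 0.598 to 0.881 CPM in control and from 0.474 to 0.724 in stress. Its Log2FC of -0.36 was larger than that of Cdc42ep2, but its SE was 0.24 at 12 to 25 counts per brain, so a difference of this size could not be resolved at this depth.

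In the fit over all genes tested, 1 of the 6 genes, Cdc42ep2, was past the threshold used for calls (an adjusted p-value under 0.05), against 13.8% of all genes tested (7.27% lower and 6.49% higher in stress). The groups did not overlap for 2 of the 6, both lower in stress, against 16.4% of all genes tested (8.22% lower and 8.20% higher). Because the genes were chosen with this contrast known, nothing is read from these counts. The median Log2FC of all genes tested was 0.00 and the median of their absolute Log2FC 0.08. In bulk tissue, fewer cells of a type and less RNA per cell cannot be told apart.

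**Figure D2:**
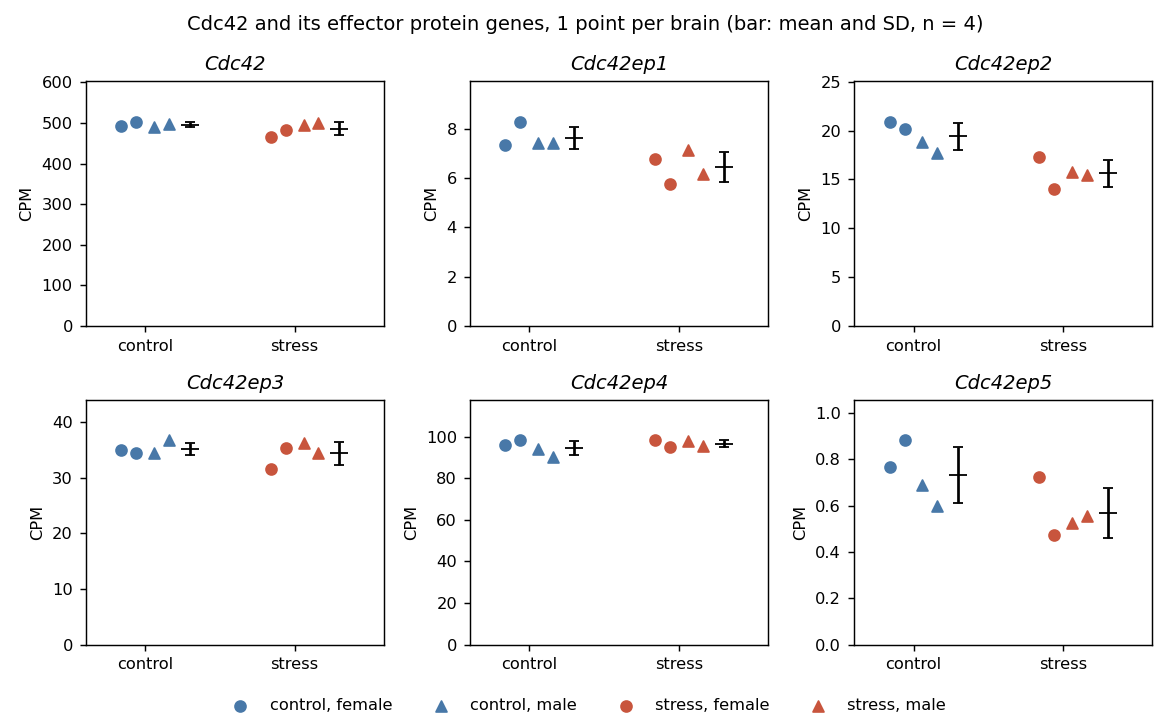
CPM of each of the 6 genes in the 4 control (blue) and 4 stress (red) brains, with circles for females, triangles for males, and the mean and SD of each group as a black bar (n = 4). Only for Cdc42ep1 and Cdc42ep2 do all stressed brains lie below all control brains, and each axis starts at 0.

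The make-up of the effector pool is described by the share of each gene in the summed FPKM of the effectors. The summed level of the 5 effectors was 57.8 ± 1.66 FPKM in control and 54.9 ± 1.29 in stress, ranging from 55.9 to 59.3 and from 53.4 to 56.3, which overlap. Cdc42ep2 made up 22.5% ± 1.03 of this sum in control and 19.1% ± 1.40 in stress, and no stressed brain (17.6 to 21.0%) reached a control brain (21.3 to 23.7%). Cdc42ep4 made up 45.0% ± 0.583 in control and 48.4% ± 0.468 in stress, again without overlap (44.2 to 45.4% and 47.7 to 48.8%). These shares add up to a fixed total, so a lower share of one gene raises that of the others. Cdc42ep3 held 26.4% ± 1.46 and 27.1% ± 1.77, Cdc42ep1 5.15% ± 0.243 and 4.60% ± 0.328, and Cdc42ep5 0.983% ± 0.135 and 0.804% ± 0.147.

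Whether the difference between the groups differed between the sexes was tested with an interaction term. Within the females, Cdc42ep2 had a Log2FC of -0.39 (SE 0.09) and Cdc42ep1 one of -0.32 (SE 0.12). Within the males these were -0.23 (SE 0.09) and -0.16 (SE 0.12). Both genes were lower in the stressed brains in each sex, and their differences were nominally larger in females. The interaction, male minus female, was 0.15 (SE 0.12) for Cdc42ep2, with an unadjusted p of 0.218 and an adjusted p of 0.890 in edgeR's quasi-likelihood test. For Cdc42ep1 it was 0.16 (SE 0.17), with an unadjusted p of 0.367 and an adjusted p of 0.917.

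Cdc42 had a Log2FC of -0.07 (SE 0.03) in females and 0.01 (SE 0.03) in males. Its interaction of 0.08 (SE 0.05) had the smallest unadjusted p of the 6 genes, 0.0999, with an adjusted p of 0.832. Cdc42ep4 had a Log2FC of -0.01 (SE 0.04) in females and 0.07 (SE 0.04) in males, where the 2 stressed brains (95.4 and 98.0 CPM) were above the 2 controls (90.1 and 94.1 CPM). Cdc42ep3 had -0.05 (SE 0.06) and -0.01 (SE 0.06), and Cdc42ep5 -0.45 (SE 0.34) and -0.26 (SE 0.36). In edgeR the interaction was called for 0 of the 6 genes, against 0.00560% of all genes tested, and 0 of the 6 had an unadjusted p under 0.05, against 6.31%. DESeq2 called 0 of the 6 as well. With 2 brains per sex and group these tests leave wide intervals, and a p that misses the threshold does not show that the sexes responded alike.

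**Figure D3:**
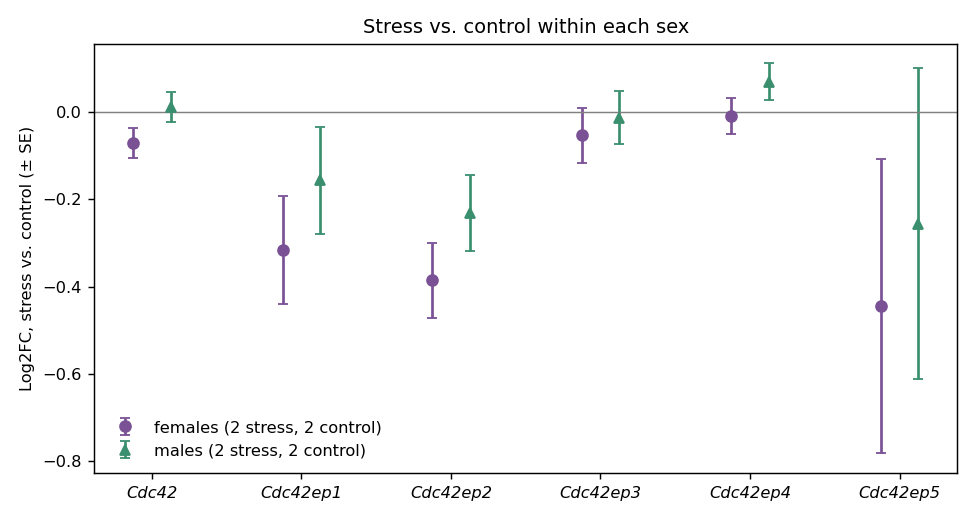
Log2FC (stress vs. control) of each of the 6 genes within females and within males, with bars of 1 SE, from the fit with a sex by stress interaction over the 8 brains (2 stress and 2 control brains per sex). Cdc42ep1, Cdc42ep2, Cdc42ep3 and Cdc42ep5 lie below 0 in both sexes, and the bars of the sexes overlap for every gene except Cdc42.

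Male and female brains were compared over both groups as a contrast the choice of genes did not use. The estimated difference was smallest for Cdc42ep1 and largest, with the widest SE, for Cdc42ep5. Missing the threshold does not show that the levels of the sexes were the same. The Log2FC (male vs. female) was 0.03 (SE 0.03) for Cdc42, 0.00 (SE 0.09) for Cdc42ep1, -0.09 (SE 0.06) for Cdc42ep2 and 0.06 (SE 0.04) for Cdc42ep3. It was -0.04 (SE 0.03) for Cdc42ep4 and -0.27 (SE 0.24) for Cdc42ep5. The adjusted p lay between 0.884 and 0.999. The ranges of the sexes overlapped for all 6 genes, against 2.26% of all genes tested for which they did not. In edgeR 0 of the 6 genes were called, against 0.0896% of all genes tested, 0 had an unadjusted p under 0.05, and DESeq2 called 0 of the 6.

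The genes that act around Cdc42 were then described by role, from 8 lists with 106 genes, of which 101 passed the filter. Of these 101, 7 were up-regulated and 21 were down-regulated in stress, or 27.7%, against 13.8% of all genes tested (6.49% higher, 7.27% lower). Their median Log2FC was -0.04, against 0.00 over all genes tested. When stressed brain M29 was left out, the down-regulated genes of the lists fell from 21 to 13, and those among all genes tested from 1298 to 854. Of the named genes of the lists, Septin5 shares 83.7% of its exon bases with other genes on its strand (Gm49601 and Gp1bb). Rac1 shares 51.4%, Map3k10 14.8% and Arhgdig 8.81% with 1 other gene each, and the others at most 3.70%. By the tool's defaults reads of shared stretches are not counted. Adjusted p-values below are from edgeR's quasi-likelihood test, and the lists were drawn up with earlier results of these data known.

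Of the 8 GTPases closely related to Cdc42, 3 were called, all lower in stress. Rac3, a neuronal Rac, fell by 0.21 on the log2 scale (SE 0.03, adjusted p = 0.000137). It was at 93.5 FPKM. Rac1 was higher in CPM (278.7 against 120.9 for Rac3) but at 62.0 FPKM, with 51.4% of its exon bases shared with Daglb, so the order of these 2 levels is uncertain. Rhoj, an endothelial relative that also binds CRIB proteins, had a Log2FC of -0.34 (SE 0.08, adjusted p = 0.00756), and Rhov one of -0.22 (SE 0.06, adjusted p = 0.0264). Rhov was not called without control F37 or stressed F34, F35 or M29 (adjusted p from 0.0537 to 0.138), nor with DESeq2 (0.0862).

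Exchange factors load GTP onto Cdc42, and 3 of 20 were called. Spata13 (Asef2) was up-regulated with a Log2FC of 0.25 (SE 0.04, adjusted p = 0.000394), although its groups overlapped. Dock9 (zizimin 1) had a Log2FC of -0.21 (SE 0.04, adjusted p = 0.00162) and Mcf2l, the most abundant of the list at 19.1 FPKM, one of -0.11 (SE 0.03, adjusted p = 0.00359). Without stressed F34, 4 of the list were lower at the same threshold, and without control M31, 2 were up-regulated.

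GTPase-activating proteins switch Cdc42 or its relatives off and GDIs hold such GTPases in the cytosol, and 6 of 16 were called, all lower in stress. Arhgap44, which acts on Cdc42 and Rac at dendritic spines, had the smallest p, with a Log2FC of -0.31 (SE 0.05, adjusted p = 7.31e-05). Arhgdig, a GDI expressed in brain, had -0.23 (SE 0.05, adjusted p = 0.00292). Srgap2 and Srgap1, F-BAR proteins of migrating neurons, had -0.14 (SE 0.03, adjusted p = 0.00143) and -0.12 (SE 0.03, adjusted p = 0.00325). The main GDI, Arhgdia, was the most abundant at 144.2 FPKM and had a Log2FC of -0.02 (SE 0.03, adjusted p = 0.800).

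The other proteins that, like the Cdc42 effector proteins, bind Cdc42 through a CRIB motif were called in either direction, 3 higher and 3 lower of 19. Pard6g, a Par6 polarity protein, had a Log2FC of 0.16 (SE 0.04, adjusted p = 0.00585), and the small effector Cdc42se2 0.12 (SE 0.03, adjusted p = 0.00554). The kinases Map3k10 and Pak6 had -0.16 (SE 0.04, adjusted p = 0.00570) and -0.14 (SE 0.04, adjusted p = 0.00759). Pak6 was not called without M29 (adjusted p = 0.0598). The remaining calls, named here after their values were seen, were Cdc42se1 (0.11, SE 0.03, adjusted p = 0.0262) and the kinase Cdc42bpa (-0.11, SE 0.03, adjusted p = 0.0105). Cdc42se1 was not called with DESeq2 (0.0600) or without control F37, M30 or M31 or stressed F34, M28 or M29 (0.0654 to 0.102), and Cdc42bpa not without M29 (0.0675). Pak1, the most abundant at 61.2 FPKM, had a Log2FC of 0.01 (SE 0.03, adjusted p = 0.883).

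Of the 12 effectors listed as without a CRIB motif, which was not searched for in them, 2 were up-regulated and 5 down-regulated. Iqgap3, an IQGAP scaffold of proliferating cells, had the largest rise of these at 0.44 (SE 0.07, adjusted p = 5.34e-05). Fmnl1, a formin, had a Log2FC of -0.23 (SE 0.05, adjusted p = 0.00115), Baiap2 (IRSp53), an I-BAR protein of dendritic spines, -0.21 (SE 0.04, adjusted p = 0.00165), and Fnbp1, an F-BAR protein, -0.12 (SE 0.03, adjusted p = 0.00744). Fnbp1l (Toca-1), the most abundant at 79.6 FPKM, had -0.02 (SE 0.03, adjusted p = 0.646).

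Named after their values were seen, the remaining calls of that list were Iqgap2 (0.20, SE 0.05, adjusted p = 0.0105), Fmnl2 (-0.09, SE 0.03, adjusted p = 0.0207) and Baiap2l2 (-0.54, SE 0.17, adjusted p = 0.0343, at a mean of 38.1 counts). Iqgap2 was not called without M31 (adjusted p = 0.0611). Fmnl2 was not called without control F37 or M30 or stressed F34 or M29 (0.0533 to 0.0715). Baiap2l2 was called in only 2 of the 8 fits that left out a brain and not by DESeq2 (0.162). It was lost without control F36, F37 or M31 or stressed F34, F35 or M29 (0.0510 to 0.129).

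Of the 10 septins tested, which the Cdc42 effector proteins bind, Septin9 was up-regulated at 0.12 (SE 0.03, adjusted p = 0.00907) and Septin5 down-regulated at -0.18 (SE 0.04, adjusted p = 0.00321), on counts from the small part of its exons that no other gene shares. A further septin was down-regulated without F35. Septin3, a neuronal septin and the most abundant at 131.2 FPKM, had a Log2FC of 0.01 (SE 0.02, adjusted p = 0.871). Of the 6 Par polarity partners, 1 was called, the atypical protein kinase C gene Prkcz, with -0.10 (SE 0.03, adjusted p = 0.0163). Prkcz was not called without control F37 or M30 or stressed F34 or M29 (adjusted p from 0.0514 to 0.0683). Llgl1, the most abundant of the Par list at 27.0 FPKM, had 0.08 (SE 0.03, adjusted p = 0.148), and it was called without F35 (0.11, adjusted p = 0.0259).

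The Arp2/3 complex, the actin nucleator at the end of the pathway, had the narrowest range of Log2FC of the 8 lists. In edgeR 0 of its 10 genes were called, 0 had an unadjusted p under 0.05, and DESeq2 called 0, but 1 was called without control M30. Its most abundant subunit, Arpc2, at 97.5 FPKM, had a Log2FC of -0.02 (SE 0.03, adjusted p = 0.723).

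**Figure D4:**
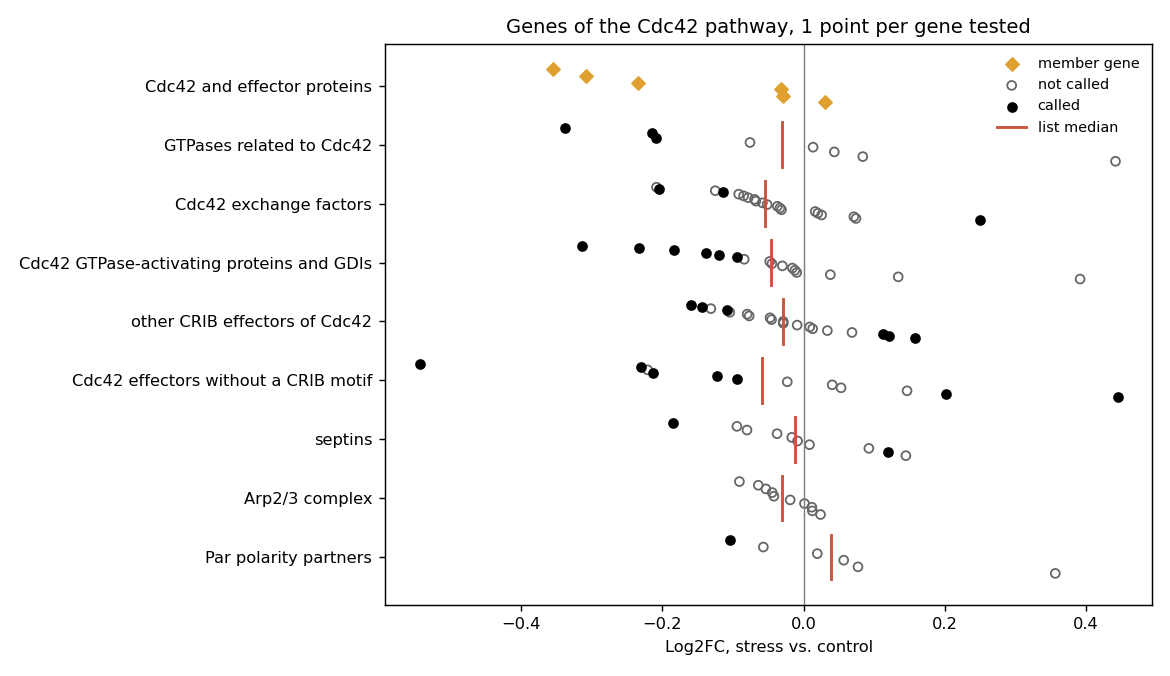
Log2FC (stress vs. control) of each gene tested, 1 row per list, with the 6 genes of Cdc42 and its effector proteins as diamonds, called genes of the other lists as filled points (adjusted p under 0.05), other genes as open points and the list median as a red line. The called GTPase-activating proteins, GDIs and GTPases related to Cdc42 all lie to the left of 0, and no Arp2/3 gene is called.

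The genes whose profile over the 8 brains was most like that of Cdc42ep2 were sought among 12578 genes with a mean count of at least 100, by the root mean square difference of mean-centred log2 CPM. This difference was 0.067 for Ace, the angiotensin-converting enzyme, 0.071 for Ramp2, a receptor partner for adrenomedullin, and 0.072 for Tspan4, a tetraspanin, against a median of 0.196 over all genes compared. Ace, with 11.8 ± 0.438 CPM in control and 10.1 ± 0.618 in stress, had a Log2FC of -0.22 (SE 0.07). Ramp2 had -0.22 (SE 0.06) and Tspan4 -0.29 (SE 0.06). For Cdc42 the nearest were Pgrmc1 (0.011) and Ube2n (0.013), against a median of 0.076. Their Log2FC was -0.02 (SE 0.03) and -0.03 (SE 0.03). All of these genes were picked for a like profile over the same 8 brains. Their Log2FC therefore follow from that choice and support nothing.

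Markers of several cell types also differed between the groups. Among the controls the endothelial sum was lowest in F36 (181.7 CPM), where Cdc42ep2 was highest. Among the stressed brains the endothelial sum was lowest in F35 (163.9 CPM), where Cdc42ep2 was lowest too. The summed level of 9 endothelial markers was 181.7 to 200.8 CPM in control and 163.9 to 175.3 in stress, without overlap, and 5 of the 9 genes were down-regulated, but only 2 with DESeq2 or without control F37 or M31, and 3 without stressed F34 or M28. The 4 oligodendrocyte lineage markers summed to 103.5 to 115.3 CPM in control and 91.0 to 97.1 in stress, also without overlap, with 2 of 4 down-regulated. The 6 markers of dividing cells went the other way, from 416.5 to 450.7 CPM in control to 471.7 to 546.1 in stress, with 5 of 6 up-regulated. Over all genes tested, 7.27% were called lower in stress and 6.49% higher, and the groups did not overlap for 16.4% of single genes. The marker counts of the next paragraph stand beside the same shares. The part of these cell types in the lower levels of Cdc42ep1 and Cdc42ep2 was not tested.

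The sums of the other lists overlapped between the groups. Neuron markers, 4 of 8 of them down-regulated (1 without stressed F34, 2 without F36, M31, M28 or M29), summed to 7099 to 7346 CPM in control and 7002 to 7281 in stress, and radial glia markers, 4 of 8 up-regulated, to 1529 to 1623 and 1559 to 1686. Fibroblast or meningeal markers, 3 of 4 tested up-regulated (1 without stressed M28, 5 without control F36, 0 with DESeq2), reached 60.0 CPM in stressed M28 against 12.4 to 28.8 in the other 7 brains, and choroid plexus markers, 1 of 4 up-regulated (0 without control F37 or stressed F34, or with DESeq2), reached 32.6 in stressed F34 against 2.19 to 10.1. Pericyte sums (137.9 to 150.5 and 138.7 to 148.1 CPM), microglia sums (25.6 to 29.1 and 24.6 to 28.1) and erythroid sums (99.6 to 115.1 and 107.0 to 113.8) overlapped. Of these, 2 of 4 erythroid genes tested were up-regulated, and edgeR called 0 of 5 pericyte genes (1 with an unadjusted p under 0.05) and 0 of 5 microglia genes (0 with an unadjusted p under 0.05), as did DESeq2. No marker was at 0 in all 8 brains, and neuron markers were by far the highest, which fits the tissue label.

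**Figure D5:**
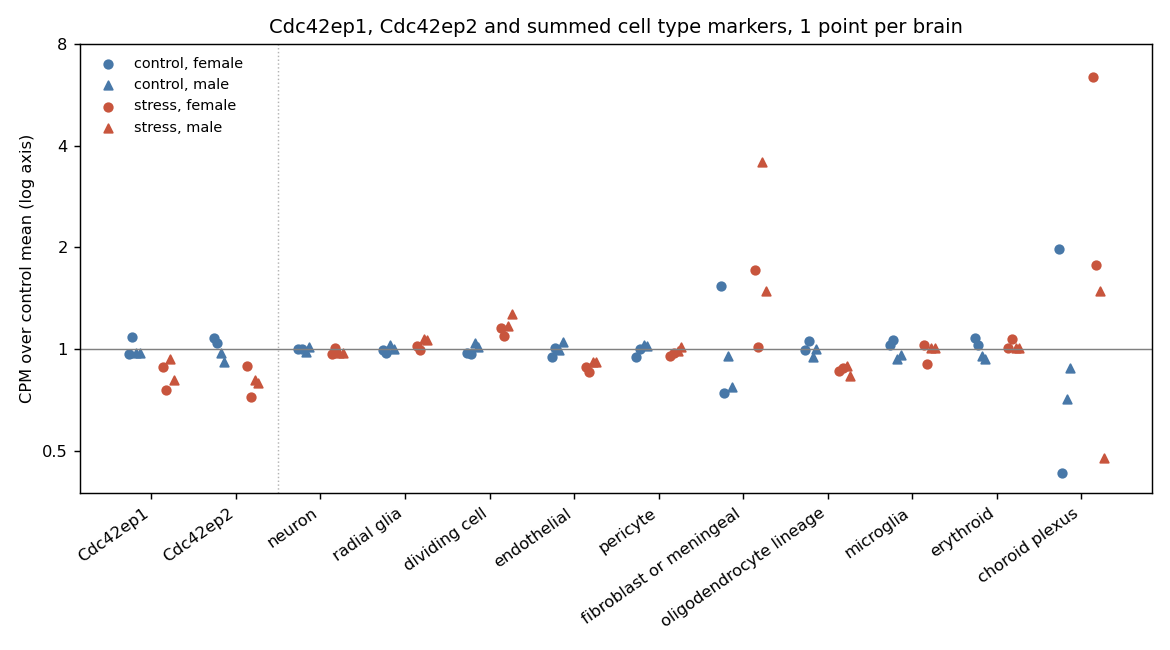
CPM of Cdc42ep1, Cdc42ep2 and the summed CPM of each marker list, divided by the mean of the 4 control brains, on a log axis with 1 point per brain (blue control, red stress, circles females, triangles males). Cdc42ep1, Cdc42ep2, endothelial and oligodendrocyte lineage markers lie lower in every stressed brain, dividing cell markers lie higher, and choroid plexus and fibroblast or meningeal markers scatter between brains.

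The promoters of the 2 genes whose groups did not overlap are shown to set them side by side, as the 250 bases before the RefSeq start on GRCm38.p6. They lie at chr15:78842397-78842646 on the plus strand for Cdc42ep1 and at chr19:5924817-5925066 on the minus strand for Cdc42ep2. Capitals mark the GC box GGGCGG and the letters CCAAT on either strand.
Cdc42ep1: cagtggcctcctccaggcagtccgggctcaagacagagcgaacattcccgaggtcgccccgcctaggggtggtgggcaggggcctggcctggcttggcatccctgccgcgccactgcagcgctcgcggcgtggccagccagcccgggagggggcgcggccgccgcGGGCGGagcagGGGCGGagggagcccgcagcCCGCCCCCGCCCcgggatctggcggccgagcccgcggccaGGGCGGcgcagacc
Cdc42ep2: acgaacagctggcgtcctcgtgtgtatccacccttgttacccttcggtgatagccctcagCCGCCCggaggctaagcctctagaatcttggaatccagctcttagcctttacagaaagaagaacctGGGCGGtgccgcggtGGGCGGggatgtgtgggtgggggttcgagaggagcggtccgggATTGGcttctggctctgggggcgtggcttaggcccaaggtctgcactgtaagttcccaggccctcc
Besides these, TTTGAA was searched for, and so were TATAAA as well as CANNTG, all on both strands. Cdc42ep1 had 5 matches to GGGCGG and none to the other letters, and 2 of the 5 adjoin each other. Cdc42ep2 had 3 matches to GGGCGG, 1 to CCAAT and 1 to CANNTG, which is left in lower case. Cdc42ep3 also had 5 matches to GGGCGG and Cdc42 had 2, whereas Cdc42ep4 and Cdc42ep5 had none. The GC content was 79.2% for Cdc42ep1 and 61.2% for Cdc42ep2, against 45.2% for Cdc42. Of 32851 promoters of the same length, 32.7% held GGGCGG, 33.8% CCAAT, 16% TTTGAA, 12.4% TATAAA and 66.2% CANNTG. A match describes the letters in the window and does not show a bound site.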

How the data were processed

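The authors prepared 1 RNA-seq library from each of 8 E15.5 mouse brains. Per the submitters' processing notes, reads were aligned to mm10 with TopHat2 2.1.1 and counted per gene with featureCounts 1.6.3. The values the authors deposited are raw counts per gene, with no normalization or filter. Per the file headers, the counting used GENCODE vM20 exons and read pairs and set no option for strand, multi-mapping reads or overlapping genes, so the tool's defaults applied (no strand, neither kind of read counted). Symbols were matched by gene identifier for 54723 of 54752 genes, and 34568 had a count above 0.

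Genes were filtered by edgeR's filterByExpr (minimum count 10, by group), and TMM factors were computed. The quasi-likelihood model (glmQLFit, glmQLFTest) held sex and group, and a further fit their interaction. Versions were edgeR 4.0.16 and limma 3.58.1 in R 4.3.3. Adjustment was by Benjamini-Hochberg over the 17865 genes tested, with calls at an adjusted p under 0.05. The SE is the size of the Log2FC divided by the square root of F. Log2 CPM used a prior count of 2. The study's model also held batch, and its sample list has no batch column for these 8 brains. The library totals were 25320109 to 29105710 counts, and differences between replicates exceeded counting noise for every pair of a group.

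The 6 genes and all lists were chosen with earlier results of these data known. Named genes were the 6 members, the 4 called genes with the smallest p and the most abundant gene of each list, and the 3 nearest profiles of Cdc42ep2 and of Cdc42, of which 1 is not reported here. Septin2 was left out because its symbol has 2 overlapping identifiers. The alternatives tried were DESeq2, RLE and upper-quartile factors, no filter, no sex covariate, and each brain left out in turn.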

Additional observations from a re-analysis of the deposited data

Results flagged for a closer look

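In 108 groups of 4 brains (54 quantities, Dixon's test of the gap over the range at either end), 9 had 1 brain far from the other 3, and chance flags about 1 group in 20. Among the 6 genes this was Cdc42ep1, at 8.29 CPM in control F37 against 7.35 to 7.44 in the other controls. Among the pathway genes, Rhoj was at 5.65 CPM in stressed M28 (others 6.52 to 6.60) and Dock9 at 61.7 in stressed M29 (others 67.4 to 68.3). Pak1 was at 234.7 CPM in stressed F34 (others 244.1 to 244.6) and Cdc42se2 at 171.2 in stressed M29 (others 159.0 to 160.2). Septin3 was at 855.5 CPM in control M30 (others 869.0 to 870.5). Of the similar profiles, Tspan4 was at 11.3 CPM in stressed F34 (others 9.95 to 10.1) and Pgrmc1 at 349.9 in the same brain (others 366.6 to 369.2). The erythroid marker sum was 113.8 CPM in stressed F35 (others 107.0 to 107.4).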

How the results depend on the processing

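As a description, since the genes were chosen on this contrast, the Log2FC of Cdc42ep2 lay between -0.35 and -0.24 over the 8 fits that left out a brain, and 1 to 2 of the 6 genes passed the threshold there, Cdc42ep1 only without stressed M28. The genes called higher in stress were 748 with DESeq2 and 736 to 1057 with a brain left out, and those called lower 854 to 1308 with a brain left out. The lowest of both ranges came without stressed M29. Down-regulated pathway genes numbered 13 to 21. Down-regulated CRIB effectors, 3 in the reported fit, numbered 5 with no filter and 1 to 4 with a brain left out. Down-regulated effectors listed as without a CRIB motif numbered 3 to 5 with a brain left out. Without the sex covariate, 2 septins, 2 neuron markers and 3 endothelial markers were down-regulated and 0 choroid plexus markers up-regulated. Between the sexes, 64 genes were called with no filter and 11 to 23 with a brain left out. The interaction was called for 2 genes with DESeq2, 37 with no filter and 0 to 6 with a brain left out. The cause was not tested.

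With a brain left out, some values that were not called changed sign. These were the sex difference of Cdc42ep1 (-0.0554 to 0.0560), the interaction of Cdc42ep3 (-0.0425 to 0.128) and of Cdc42ep5 (-0.0681 to 0.536), and the stress difference of Cdc42ep3 (-0.0624 to 0.00382), Arhgdia (-0.0393 to 0.0138) and Pak1 (-0.00367 to 0.0295). Ace was called in only 2 of these 8 fits and Ramp2 in 5, and neither by DESeq2 (adjusted p 0.102 and 0.0718). No paired analysis was possible because the groups hold different fetuses and each group is a single litter. Depth limits Cdc42ep5 most.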
